A study of Mus musculus with 16 samples.

Results

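The neurotrophins are secreted growth factors that keep sensory neurons alive and guide their fibres. Bdnf encodes brain-derived neurotrophic factor, whose high-affinity receptor is the tyrosine kinase TrkB, encoded by Ntrk2. Ntf3 encodes neurotrophin 3, whose main receptor is TrkC, encoded by Ntrk3. Ngfr encodes p75, a receptor without kinase activity that binds every neurotrophin. In the inner ear, hair cells and supporting cells are known sources of neurotrophins, and the neurons of the spiral and vestibular ganglia carry TrkB and TrkC and depend on these factors for their survival.

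The 5 genes were taken as a family, and every probe set whose only platform gene symbol is one of them was used. The platform annotation used here names 3 of the 5 genes, each with 1 probe set, among 12422 probe sets of the chip. These are 102727_at for Bdnf, 99069_at for Ntrk2 and 95334_at for Ntrk3. No probe set is named for Ntf3 or Ngfr, which were not analysed here, and no probe set names a member beside other genes. Since each of the 3 genes rests on a single probe set, no second probe set could be compared with it, and transcript forms of Ntrk2 and Ntrk3 with and without the kinase domain were not told apart.

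RNA came from whole inner ears of newborn (P0) mice of the 129SvEv strain, either wild-type or COUP-TFI-/-, the genotype that lacks the nuclear receptor COUP-TFI encoded by Nr2f1. Each chip was hybridized with a pool of inner ear RNA, in 2 sets, A and B, whose hybridizations took place at separate times. In all there were 8 chips and 4 pools, 2 of each genotype, since every set used another pool of each genotype and every pool went onto 2 chips, numbered 1 and 2. Duplicate chips of a pool show the spread of the array and not that between pools, and the number of animals in a pool is not given in the sources used here. In a whole organ, fewer cells of a type and less RNA per cell cannot be told apart.

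The authors deposited 2 normalizations of the same 8 chips, GCRMA on the log2 scale and dChip as a linear intensity. Chip medians lay between 7.20 and 7.23 for GCRMA and between 291 and 305 for dChip. The inner ear genes picked as a check (Gjb2, Tectb, Otog, Myo6 and Myo7a) lay above the chip median in wild-type, and others were not checked in this way. Gjb2, the connexin 26 gene of cochlear supporting cells, had GCRMA values of 9.87 to 10.3, above at least 93.1% of probe sets of each chip, and Tectb, a protein of the tectorial membrane, had 8.57 to 9.23. The hair cell myosin genes Myo6 (7.90 to 8.24) and Myo7a (7.91 to 8.17) lay above 64.4% to 71.7% of probe sets. The targeted gene Nr2f1 had GCRMA values of 7.74 to 8.83 on the wild-type chips and at most 5.27 on the others, so the labels of all 8 chips matched it. A genotype difference is the log2 value of COUP-TFI-/- less that of wild-type, tested with limma on the 4 pool means with the set as a block, with Benjamini-Hochberg adjustment over all probe sets. That test called 13 probe sets with GCRMA, 9 higher and 4 lower in COUP-TFI-/-, or 0.105% of those tested, and 1 with dChip (0.00805%). After a further quantile normalization of the GCRMA values it called 1 higher and 1 lower, and when 1 chip was left out it called 1 to 54 in all with GCRMA. The standard error (SE) of this fit borrows most of its degrees of freedom from the other probe sets, so the separate differences in sets A and B are given beside it.

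COUP-TFI is known to bind direct repeats of the half-site AGGTCA, best with 1 base of any kind between them. The half-site and this spaced repeat were searched on both strands of the RefSeq promoter windows (GRCm38.p6), which run from 250 bases before to 50 bases after a transcript start. The table held 7 windows for Bdnf, which has several promoters, and 1 for Ntrk2. It held 0 for Ntrk3, so Ntrk3 was not searched. The spaced repeat was in 0 of the Bdnf and Ntrk2 windows, and in 0.0396% of all 32851 windows. The half-site, of which the spaced repeat holds 2 copies, was in 1 of the 7 Bdnf windows (chr2:109692777-109693076) and not in that of Ntrk2, and it was in 16.3% of all windows. The Bdnf match is shown because it is the only one in the windows of Bdnf and Ntrk2. The half-site is in capitals on the strand of the gene (chr2:109692965-109692994, + strand), its first base 50 bases before the start.
Bdnf: cacactccggagAGGTCAgggcgcaaactc
A match of these letters is a description and not a bound site, and the probe set does not tell transcripts of the 7 starts apart.

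Bdnf, the only ligand of the family with a probe set, differed between the hybridization sets far more than between the genotypes. In wild-type its GCRMA values were 6.55 and 6.62 on chips A1 and A2 and 5.37 and 5.56 on chips B1 and B2. Both COUP-TFI-/- chips of set A had 6.68, and those of set B had 5.58 and 5.67. All 4 chips of set A lay above all 4 chips of set B, in both genotypes. These values lay below the chip median, above 36% to 38.6% of probe sets in set A and 18.3% to 22.4% in set B. How much of such low values is background was not measured. The dChip intensities of wild-type were 385 and 384 for set A but 239 and 244 for set B, and those of COUP-TFI-/- went from 423 and 408 down to 208 and 205. With dChip, too, the sets did not overlap, and Bdnf lay above 57.6% to 60.8% of probe sets in set A and 38.2% to 43.3% in set B.

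**Figure D1:**
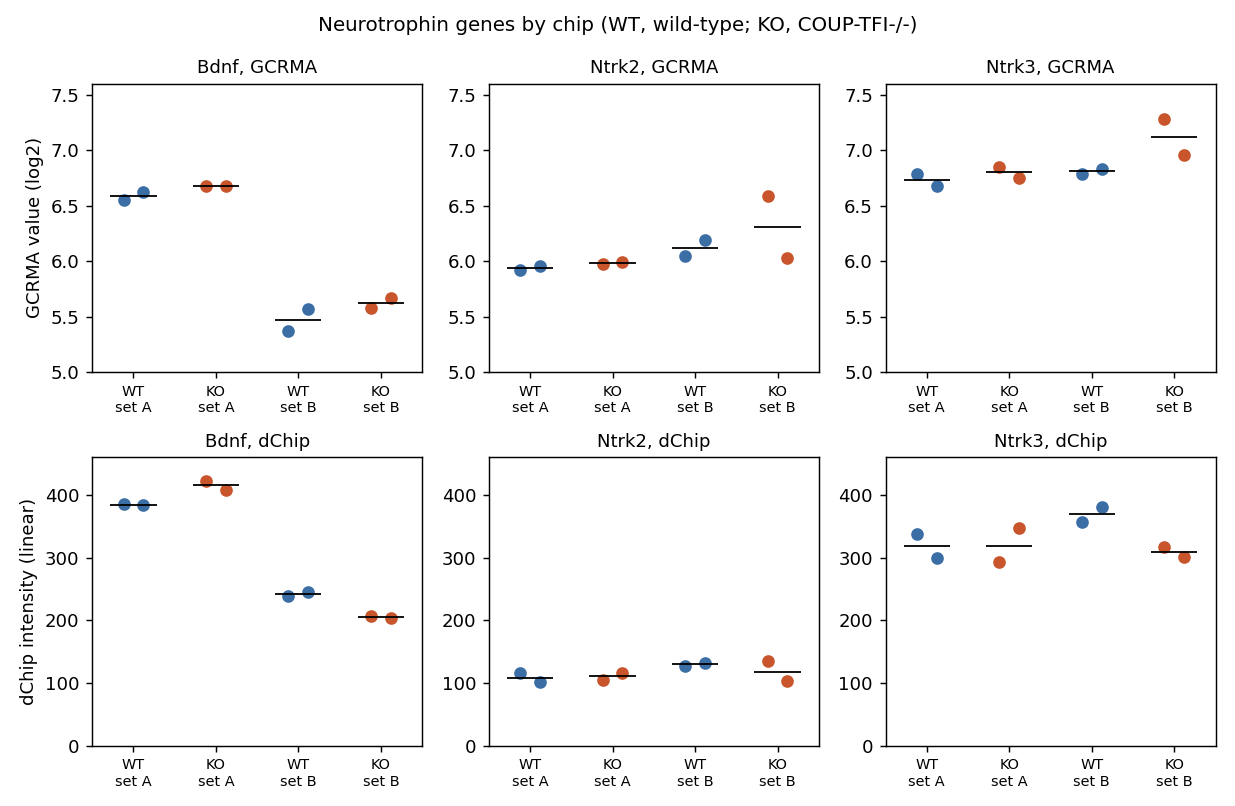
Values of Bdnf, Ntrk2 and Ntrk3 on each of the 8 chips, with GCRMA values (log2, upper row) and dChip intensities (linear, lower row, axis from 0). Points are chips, blue for wild-type and orange for COUP-TFI-/-, and the black line is the mean of the duplicate chips of a pool (for dChip, the mean on the log2 scale). Bdnf falls into a high set A and a low set B, whereas Ntrk2 and Ntrk3 change little but for the higher COUP-TFI-/- chip of set B with GCRMA.

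Set A exceeded set B by 1.09 ± 0.10 (SE) log2 units for Bdnf with GCRMA, a 2.12-fold difference (adjusted p = 1.4e-06 from limma, 4 pool means). The fold was 2.17 between the wild-type pools and 2.08 between the COUP-TFI-/- pools. With dChip the difference was 0.84 ± 0.12 log2 units, or 1.79-fold (adjusted p = 0.0197), at 1.59-fold between the wild-type pools and 2.02-fold between the COUP-TFI-/- pools. Of all probe sets, 0.676% had a larger absolute difference between the sets with GCRMA and 3.27% with dChip. The comparison of sets called many probe sets, 25.8% with GCRMA and 11.7% with dChip. For set A above set B alone, the direction of Bdnf, the shares were 13.6% and 6.76%, and all chips of set A lay above all chips of set B for 17.1% and 20.1% of probe sets. Set beside these shares, a call for 1 of 3 probe sets is no result about the family. The size of the Bdnf difference was high among those of the chip. The sets differ in the time of hybridization and in the pools of animals, and these cannot be told apart.

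The genotype difference of Bdnf was small and did not pass the test in either normalization. With GCRMA it was 0.12 ± 0.10 (SE) log2 units, with a 95% interval from -0.08 to 0.33 (adjusted p = 1.00 from limma), which spans folds from 0.947 to 1.25. It was 0.09 within set A and 0.15 within set B, or 0.0769 over both without chip B1 of wild-type, and in both sets both COUP-TFI-/- chips lay above both wild-type chips, as they did for 4.60% of all probe sets. With dChip it was -0.06 ± 0.12 log2 units, with a 95% interval from -0.37 to 0.25 (adjusted p = 1.00 from limma), or folds from 0.774 to 1.19. Here the sets went opposite ways, with 0.11 for set A, -0.23 for set B and no overlap of chips in either set. Such opposite, non-overlapping sets were found for 13.4% of all probe sets with dChip. The difference between these set effects, the interaction of genotype and set, was 0.34 ± 0.10 (SE) log2 units with an unadjusted p of 0.00742 and an adjusted p of 0.109 from limma on the 8 chips. An unadjusted interaction p under 0.01 was found for 8.37% of probe sets with dChip and 6.01% with GCRMA, and with GCRMA that of Bdnf was 0.642. This p rests on the spread of duplicate chips, which for Bdnf with dChip was 0.02 log2 units (SD), lower than that of all but 0.942% of probe sets.

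**Figure D2:**
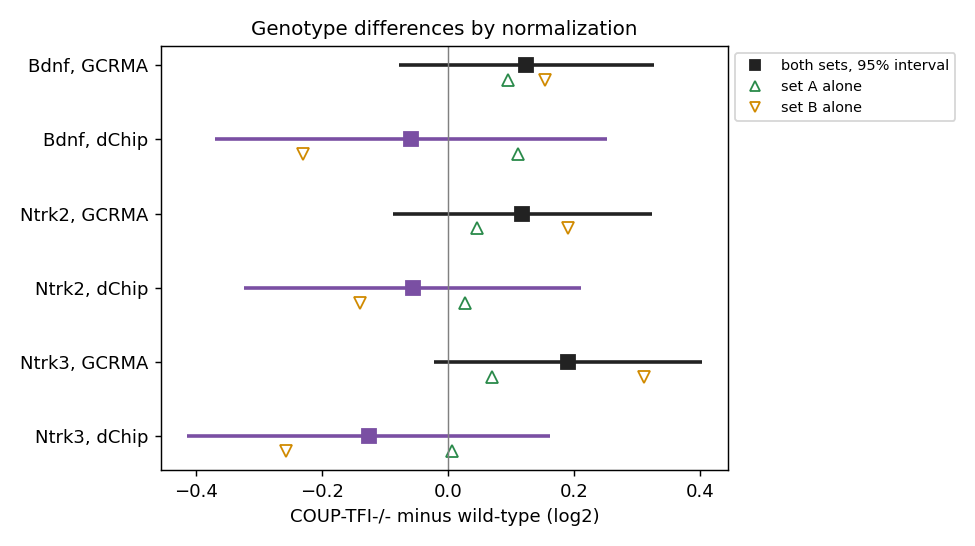
Genotype differences (COUP-TFI-/- minus wild-type, log2) of the 3 genes with GCRMA (black squares) and dChip (purple squares), with 95% intervals from limma as horizontal lines. Open triangles below each square give the difference within set A (pointing up) and within set B (pointing down). All 6 intervals include 0, and the GCRMA and dChip estimates of each gene lie on opposite sides of 0.

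Ntrk2, the receptor of Bdnf, was measured below the chip median with both normalizations and had no genotype difference that passed the test. Its wild-type GCRMA values were 5.92 and 5.95 on chips A1 and A2, with 6.04 and 6.19 on chips B1 and B2. The COUP-TFI-/- chips read 5.97, 5.99, 6.58 and 6.03 in the same order. Both COUP-TFI-/- chips of set A were just above wild-type, and the genotypes overlapped in set B. The share of all probe sets without overlap of chips within a single set was not counted, so the set A order is no result about Ntrk2. Chip B1 of COUP-TFI-/- stood above the other 7 chips, which lay within 5.92 to 6.19. The dChip intensities of chips A1, A2, B1 and B2 were 116, 102, 128 and 133 for wild-type, and 106, 117, 135 and 103 for COUP-TFI-/-. The genotypes overlapped in both sets with dChip.

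The GCRMA genotype difference of Ntrk2 was 0.12 ± 0.10 (SE) log2 units, or 0.05 within set A and 0.19 within set B (unadjusted p = 0.241 and adjusted p = 1.00 from limma). It became -0.0197 when chip B1 of COUP-TFI-/- was left out, so its sign rested on that chip. With dChip the difference was -0.06 ± 0.11 log2 units, or 0.03 within set A and -0.14 within set B (adjusted p = 1.00 from limma), and it became 0.0398 without chip B2 of COUP-TFI-/-. The 95% intervals run from folds of 0.941 to 1.25 with GCRMA and from 0.799 to 1.16 with dChip. Set A minus set B was -0.25 ± 0.10 log2 units with GCRMA (adjusted p = 0.0662 from limma) and -0.17 ± 0.11 with dChip (adjusted p = 0.309). The GCRMA value was -0.12 without chip B1 of COUP-TFI-/- (adjusted p = 0.483) and -0.39 without chip B2 (adjusted p = 0.0181), so its call depended on which duplicate was kept. All GCRMA chips of set B lay above those of set A, as for 20.0% of probe sets. For the receptor, the sets thus differed by less than for its ligand, with the opposite sign, and with all 8 chips the set difference did not pass the test.

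Ntrk3, the TrkC receptor, also had no genotype difference that passed the test. Wild-type GCRMA values were 6.79, 6.67, 6.79 and 6.83 on chips A1, A2, B1 and B2. COUP-TFI-/- values on the same chips were 6.85, 6.75, 7.28 and 6.96. The genotypes overlapped in set A, and both COUP-TFI-/- chips were above wild-type in set B. The dChip intensities turned this order around in set B, where wild-type had 357 and 381 and COUP-TFI-/- had 316 and 301. In set A they overlapped, with 338 and 299 in wild-type and 293 and 348 in COUP-TFI-/-. The share of all probe sets without overlap of chips within a single set was not counted, so the set B orders are no result about Ntrk3.

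The difference of Ntrk3 was 0.19 ± 0.10 (SE) log2 units with GCRMA, or 0.07 within set A and 0.31 within set B (unadjusted p = 0.0752 and adjusted p = 1.00 from limma). With dChip it was -0.13 ± 0.12 log2 units, or 0.01 within set A and -0.26 within set B (unadjusted p = 0.320 and adjusted p = 1.00 from limma). The GCRMA difference became 0.11 without chip B1 of COUP-TFI-/- and 0.27 without chip B2 (unadjusted p = 0.0293, adjusted p = 0.781), and the dChip difference became -0.0643 without chip A1 of COUP-TFI-/- and -0.0817 without chip A1 of wild-type. The 95% intervals allow folds from 0.985 to 1.32 with GCRMA and from 0.750 to 1.12 with dChip. Set A minus set B was -0.20 ± 0.10 with GCRMA (adjusted p = 0.160 from limma) and -0.08 ± 0.12 with dChip (adjusted p = 0.654), and the GCRMA value was -0.12 without chip B1 of COUP-TFI-/-.

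Across the family, 0 of 3 probe sets passed the genotype test in either normalization, and 0 of 3 had an unadjusted p under 0.05, a level reached by 4.58% of probe sets with GCRMA and 2.13% with dChip. Within set A the 6 differences, over both normalizations, lay between 0.01 and 0.11 log2 units. In set B they were 0.15 to 0.31 with GCRMA and -0.26 to -0.14 with dChip. The direction of the genotype difference of all 3 genes thus depended on which deposited normalization was read, and the disagreement was in set B. The intervals leave room for changes of up to 1.32-fold upwards and down to 0.750-fold.

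Chip B1 of COUP-TFI-/- entered the 2 receptor results. With GCRMA it exceeded its duplicate, chip B2, by 0.55 log2 units for Ntrk2 and by 0.33 for Ntrk3, more than for 99.6% and 95.3% of the 3105 probe sets in the same quartile of mean GCRMA values. The median of that quartile, the next to lowest, was 0.04, and that of the lowest quartile was 0.06. Bdnf, in the same quartile, had -0.09. With dChip chip B1 exceeded chip B2 by 0.39 for Ntrk2 and 0.07 for Ntrk3. Whether properties of this chip produced the set B differences of the receptors was not tested.

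Genes of neighbouring tissue differed between the pools. The summed dChip intensity of 29 striated muscle genes was 43443 to 43574 for the wild-type pool of set A and 41267 to 42502 for its COUP-TFI-/- pool. In set B it was 31268 to 31303 for wild-type but 48458 to 50418 for COUP-TFI-/-. Of these genes 2 passed the genotype test with GCRMA, Myh8 (0.98 log2 units) and Myh3 (0.80), both myosin heavy chains of developing muscle. Of all 8251 genes 8 passed as higher and 3 as lower, and 0 muscle genes passed with dChip. With GCRMA 27 of 29 had a positive difference, beside 51.9% of all genes. At an unadjusted p under 0.05 from limma, 18 were higher and 0 lower (62.1%) with GCRMA, beside 4.30% of all genes. With dChip 5 were higher and 1 lower (20.7%), beside 1.73%. For 26 brain and pituitary genes the set A sums were 12576 to 13029 for wild-type, against 11088 to 11288 for COUP-TFI-/-, and the set B sums were 8709 to 8900 against 9424 to 9648. The part of these tissues in the differences of Bdnf, Ntrk2 and Ntrk3 was not tested.

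Bdnf was set beside genes of the cells that make or receive neurotrophins. Of 28 genes of spiral and vestibular ganglion neurons, 17 (60.7%) were higher in set A and 1 in set B by limma's adjusted p with GCRMA, with a median set difference of 0.33 log2 units, beside 14.1% of all 8251 genes higher in set A, 12.4% higher in set B and a median of -0.02. The synaptic vesicle protein gene Syt1 was higher in set A by 0.89 (adjusted p = 1.4e-05 from limma), and Chgb, a secretory granule protein of neurons, by 0.85 (adjusted p = 2.0e-05). With dChip 12 of the 28 were higher in set A and 0 in set B, beside 6.07% and 4.30% of all genes. Their summed intensity was 18585 to 19951 in the chips of set A and 15089 to 16561 in those of set B. Set A minus set B was below 0 for Ntrk2 and Ntrk3 in both normalizations, but did not pass the test (GCRMA adjusted p = 0.0662 and 0.160 from limma). Both GCRMA values were -0.12 without chip B1 of COUP-TFI-/-. Genes such as Syt1 and Chgb are not particular to ganglion neurons, and 8 of 26 brain and pituitary genes (30.8%) were also higher in set A with GCRMA. Ganglion neurons and any brain tissue in the pools cannot be told apart by this list.

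The counts that follow stand against those same shares of all genes, 14.1% and 12.4% with GCRMA and 6.07% and 4.30% with dChip. Of 10 hair cell genes, 1 was higher in set A and 1 in set B with GCRMA, the calcium-binding protein gene Calb1 (0.36, adjusted p = 0.0122 from limma) and Atoh1, the transcription factor that specifies hair cells (-0.36, adjusted p = 0.0128). With dChip Atoh1 alone of the 10 passed. Cochlear supporting cell genes were higher in set A for 8 of 19 (42.1%) and higher in set B for 2 (10.5%) with GCRMA, and for 5 and 2 with dChip. Among them Sox2, a transcription factor of prosensory and supporting cells, had 1.15 log2 units (adjusted p = 7.7e-07 from limma), and S100a1, a calcium-binding protein, had -0.61 (adjusted p = 3.1e-04). Of 17 Schwann cell and satellite glia genes 5 (29.4%) were higher in set A and 1 was lower with GCRMA, but with dChip 2 were higher and 2 lower. Among the 26 brain and pituitary genes the counts were 8 (30.8%) and 1 with GCRMA, and 5 and 1 with dChip. Cntn1, a neural adhesion molecule on the brain list, had 1.80 log2 units (adjusted p = 6.4e-09). Of the 29 muscle genes 4 (13.8%) were higher in set A and 2 (6.90%) lower with GCRMA, against 0 and 2 with dChip, so these counts lay near or below the shares of all genes or went the other way.

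**Figure D3:**
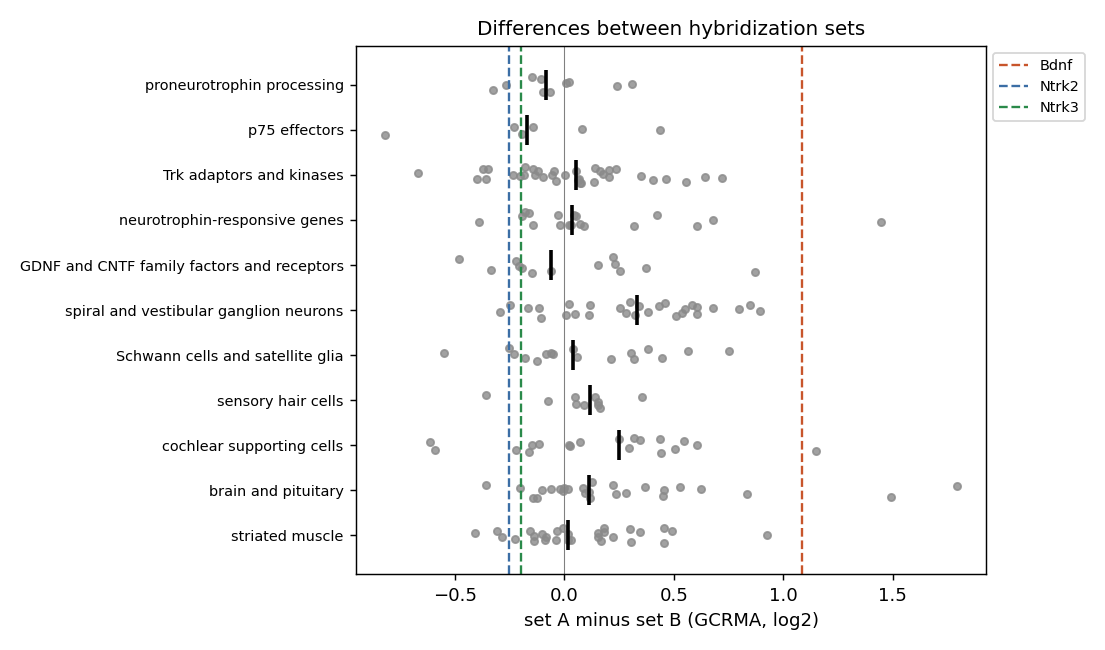
Set A minus set B (GCRMA, log2) for genes of 11 lists, with 1 point per gene and a black bar at the median of each list, and dashed lines at the values of Bdnf, Ntrk2 and Ntrk3. The Bdnf line at 1.09 lies right of nearly all points, the neuron list has the highest median (0.33), and the lines of both receptors lie left of 0.

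The genes of neurotrophin signalling that the chip measures showed no genotype difference past the adjusted p. Of all 8251 genes, 4.30% with GCRMA and 1.73% with dChip had an unadjusted genotype p under 0.05 from limma. At these shares short lists would hold few such genes or none, so a count of 0 is no result about a list. For the other neurotrophins, receptors and sorting proteins of the list, the annotation named only Sorl1, a sorting receptor, with a genotype difference of -0.04 ± 0.10 (SE) log2 units. Enzymes that cut proneurotrophins to their mature form had 10 genes on the chip, with 0 at an unadjusted p under 0.05 and a median genotype difference of 0.01. Their proprotein convertases Pcsk6 and Pcsk5 went opposite ways between the sets with GCRMA, -0.32 (adjusted p = 0.0252 from limma) and 0.31 (adjusted p = 0.0266), while with dChip 0 of the 10 passed. The cytoplasmic partners and effectors of p75 had 6 genes, a median genotype difference of 0.01 and 0 at an unadjusted p under 0.05. Of the 6, 1 was higher in set A and 1 in set B with each normalization. Over all genes the shares were 14.1% and 12.4% with GCRMA, and 6.07% and 4.30% with dChip. Rhoa, the small GTPase that p75 activates, was higher in set B, with -0.82 log2 units for GCRMA (adjusted p = 8.7e-05 from limma) and -0.66 for dChip (adjusted p = 0.0261). Irak1 was higher in set A, with 0.44 for GCRMA (adjusted p = 0.00333 from limma) and 0.51 for dChip (adjusted p = 0.0441).

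Adaptors and kinases downstream of the Trk receptors had 35 genes on the chip. Of these 0 had an unadjusted genotype p under 0.05 with either normalization, beside 4.30% of all genes with GCRMA and 1.73% with dChip. The smallest GCRMA p among them was that of Shc3, a neuronal adaptor that binds activated Trk receptors, at 0.0756, with 0.20 ± 0.10 (SE) log2 units with GCRMA and 0.04 ± 0.10 with dChip (adjusted p = 1.00 from limma in both). Between the sets, 6 (17.1%) were higher in A and 5 (14.3%) in B with GCRMA, near the shares of all genes (14.1% and 12.4%), and 4 and 1 with dChip. Sos2, which loads Ras with GTP, was higher in set A (0.72, adjusted p = 7.0e-05), and Akt2, a survival kinase, was higher in set B (-0.67, adjusted p = 1.3e-04). The median genotype difference of the 35 was -0.02, beside 0.00 over all 8251 genes.

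Genes known to respond to neurotrophins had 18 members on the chip. With GCRMA 5.56% of them had an unadjusted genotype p under 0.05 from limma, near the 4.30% of all genes. The phosphatase gene Dusp1 was the 1 member with an unadjusted genotype p under 0.05 with GCRMA, at 0.36 ± 0.10 (SE) log2 units (unadjusted p = 0.00205, adjusted p = 0.446 from limma), and with dChip it had 0.31 ± 0.12 (unadjusted p = 0.0502). Tac1, which encodes the neuropeptide substance P, was higher in set A by 1.45 log2 units (adjusted p = 7.0e-08), more than Bdnf, and by 1.46 with dChip (adjusted p = 0.00417). Gap43, a growth cone protein that is also on the neuron list, was higher in set A by 0.68 with GCRMA (adjusted p = 1.8e-04) and by 0.50 with dChip (adjusted p = 0.0396). In all 5 of the 18 (27.8%) were higher in set A and 1 (5.56%) in set B with GCRMA, beside 14.1% and 12.4% of all genes, and 2 and 1 with dChip.

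The GDNF and CNTF families, other survival factors of neurons, had 13 genes on the chip, with a median genotype difference of 0.03 with GCRMA. Of these 0 had an unadjusted genotype p under 0.05 with GCRMA, beside 4.30% of all genes. Lifr, the receptor of leukaemia inhibitory factor, was higher in set A by 0.87 log2 units with both normalizations (adjusted p = 1.6e-05 with GCRMA and 0.0125 with dChip from limma). Cntfr, the receptor of ciliary neurotrophic factor, was higher in set B (-0.48 with GCRMA, adjusted p = 0.00174, and -0.45 with dChip, adjusted p = 0.0489). Gdnf itself had a genotype difference of -0.09 ± 0.10 (SE) log2 units.

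Neuron, hair cell, supporting cell, brain and glia lists were read for genotype as well. Of the 28 neuron genes 0 passed the adjusted p, 3 were lower and 0 higher at an unadjusted p under 0.05 with GCRMA, with a median of -0.06, and 9 (32.1%) had a difference above 0. Over all 8251 genes 138 were lower and 217 higher at that p, 4.30% in all, and 51.9% had a difference above 0. With dChip 1 of the 28 was lower at that p, which 1.73% of all genes reached in either direction. Scg2, a secretory granule protein, had -0.30 ± 0.12 (SE) log2 units (adjusted p = 0.917 from limma). The hair cell median was -0.01 and the supporting cell median -0.03 with GCRMA. At an unadjusted p under 0.05, 2 of 10 and 3 of 19 were lower with GCRMA, and 0 of 10 and 2 of 19 with dChip. Of 26 brain and pituitary genes 0 passed the adjusted p. At an unadjusted p under 0.05 from limma, 2 were higher and 4 lower (23.1%) with GCRMA, and 2 and 4 with dChip. On the glia list Fabp7, a fatty acid binding protein, was lower by 0.58 with GCRMA (-0.58 ± 0.10, adjusted p = 0.0389) and the other 16 did not pass. With dChip Fabp7 had -0.42 ± 0.12 (adjusted p = 1.00) and 0 of the 17 passed.

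Probe sets with the chip profile nearest to each gene were found by the root mean square difference between GCRMA values over the 8 chips, each centred on its own mean, among 10832 probe sets. The 8 chips are 4 pools in duplicate, so the profiles share pools and sets. For Bdnf the nearest were Pag1, an adaptor of lipid rafts (0.09 log2 units), the general transcription factor gene Sp1 (0.10) and the RNA helicase gene Ddx50 (0.10), all higher in set A by 1.17 to 1.24. For Ntrk2 they were the cannabinoid receptor gene Cnr2 (0.04), Cuedc1 (0.05) and Gast, the gastrin gene (0.06). For Ntrk3 they were F8a (0.04), Hmgb4 (0.04) and Gm7775 (0.05). Within 0.1 log2 units lay 2 probe sets for Bdnf, 123 for Ntrk2 and 257 for Ntrk3, so the nearest 3 of the receptors were picked from many alike. That these share a high chip B1 of COUP-TFI-/- with the receptors follows from how they were chosen, as does the higher set A of the 3 nearest to Bdnf.

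**Figure D4:**
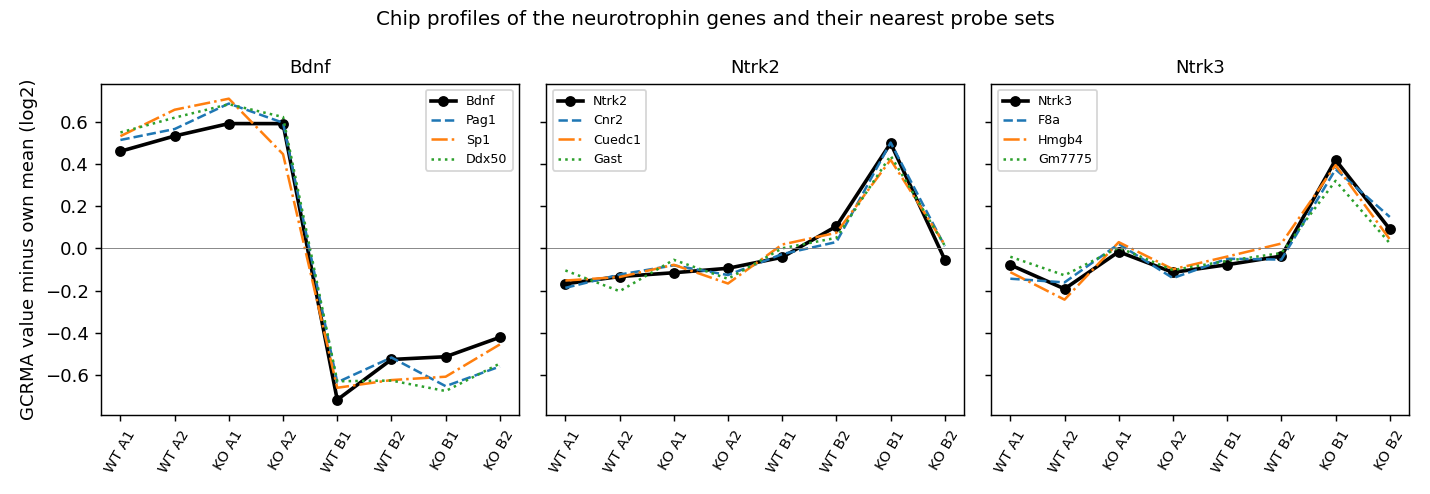
GCRMA values (log2, each minus its own mean over 8 chips) of Bdnf, Ntrk2 and Ntrk3 (black) and of the 3 probe sets nearest to each (coloured broken lines), by chip (WT, wild-type, and KO, COUP-TFI-/-). The Bdnf group steps down between sets A and B, and the groups of both receptors peak on chip KO B1.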

How the data were processed

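The study compared gene expression between P0 inner ears of both genotypes on 8 Affymetrix MG-U74Av2 chips. The authors deposited log2 values made with GCRMA, and dChip expression values as intensity on a linear scale, for the same chips. Software versions are not given in the sources used here. The letter of a replicate was read as the hybridization set and the number as the duplicate chip, after the methods. All 16 value columns were used. Without the 66 Affymetrix control probe sets, tests ran on 12422 probe sets for GCRMA and, since 1 lacks a dChip value, 12421 for dChip. A floor of 1, which replaced 89 dChip values, preceded the log2 transformation. Genes were named from the platform annotation, in which 10833 probe sets have 1 symbol, 396 several and 1193 none.

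Calculations used R 4.3.3, limma 3.58.1 and statmod 1.5.0 and were tested on simulated data. Duplicate chips were averaged to 4 pool means per probe set. Genotype and set were fitted together with limma (1 residual degree of freedom, plus a prior of 14.3 for GCRMA and 4.55 for dChip), with 2-sided p-values, Benjamini-Hochberg adjustment over all probe sets and a threshold of 0.05. Their interaction was fitted on the 8 chips. Pools of a set were hybridized together per the methods, so the set pairs them, and the A minus B differences of wild-type and COUP-TFI-/- correlated across probe sets with r = 0.752 for GCRMA and 0.688 for dChip, where probe sets are not independent replicates. Arrays give no counts, and their precision is limited by how few pools and chips there are.

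The genes and the lists (proneurotrophin processing, p75 effectors, Trk adaptors and kinases, responsive genes, GDNF and CNTF families, ganglion neurons, glia, hair cells, supporting cells, muscle, brain and pituitary) were chosen with earlier results of these data known. Each list used the brightest probe set per gene, and named the 2 genes with the smallest genotype p and the 2 with the largest set difference, of which not all are described. Dimmer probe sets, other blocks, quantile normalization, other log transformations and leaving out each chip were tried as alternatives.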

Additional observations from a re-analysis of the deposited data

Results flagged for a closer look

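In the 4 COUP-TFI-/- chips, the GCRMA value of Ntrk2 on chip B1 (6.58) stood apart from the others (5.97, 5.99 and 6.03), with a gap of 0.900 of the whole range, above Dixon's 95% limit for 4 samples. This was 1 of 12 groups of 4 chips screened, and chance alone marks about 1 in 20 for independent samples. The 4 chips are 2 pools in duplicate from 2 hybridization sets, so they are not independent and that rate need not hold. With dChip the same chip had 135, against 103 to 117 on the others, and was not marked.

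For Bdnf with dChip the genotype difference had opposite signs in the 2 sets, without overlap of chips, as for 13.4% of all probe sets. The difference in set A exceeded that in set B by 0.342 log2 units (unadjusted p = 0.00742, adjusted p = 0.109, from limma on the 8 chips, duplicate chips as replicates). With GCRMA the value was -0.06. An unadjusted interaction p under 0.01 was found for 8.37% of probe sets with dChip. The p of Bdnf rests on duplicate chips whose SD was 0.02 log2 units, lower than that of all but 0.942% of probe sets.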

How the results depend on the processing

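For Bdnf the set difference passed the adjusted p of limma in both normalizations under all alternatives that kept its probe set, with 1.04 to 1.13 log2 units for GCRMA and 0.72 to 0.85 for dChip. Over 84 alternative genotype fits of the 3 genes, 0 passed and 2 changed sign. Both were for Ntrk2, with -0.0197 (GCRMA) without COUP-TFI-/- replicate B1 and 0.0398 (dChip) without COUP-TFI-/- replicate B2. Leaving out each chip gave Ntrk2 -0.0197 to 0.256 with GCRMA and -0.153 to 0.0398 with dChip. The interaction changed sign for Bdnf with GCRMA without wild-type replicate B1 (0.0358), and for Ntrk2 with GCRMA without COUP-TFI-/- replicate B1 (0.131) and with dChip without COUP-TFI-/- replicate B2 (-0.0247). Leaving out each chip gave -0.155 to 0.0358 for Bdnf with GCRMA, -0.420 to 0.131 for Ntrk2 with GCRMA and -0.0247 to 0.360 for Ntrk2 with dChip. Without COUP-TFI-/- replicate B2 the GCRMA interactions of Ntrk2 and Ntrk3 reached an unadjusted p of 0.00694 and 0.00877. Without replicate B1 instead, the Ntrk3 interaction went from -0.24 to -0.0775. For the genotype difference of Ntrk3 the unadjusted GCRMA p was 0.0253 with the 8 chips as replicates, 0.0397 with the random block and 0.0474 without COUP-TFI-/- replicate A2. With the 8 chips as replicates the set difference of Ntrk3 had an adjusted p of 0.0461 with GCRMA. With any 1 chip left out the dChip interaction p of Bdnf was 0.0150 to 0.0284. It was 4.4e-04 by a 2-way analysis of variance run here. The cause of these changes was not tested. All 3 genes lie below the median GCRMA value, so a filter at that median removed them. The lower quartile filter was added after seeing the data. How much of such low values is background was not measured.

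The number of probe sets past the genotype test, 13 with GCRMA and 1 with dChip, became 159 and 67 with the 8 chips as replicates, 27 and 5 with the pool as a random block, 38 and 6 above the median, 2 and 3 (2 higher) with quantile normalization, and 0 and 0 without the set as a replicate block, where limma left 38 and 36 at an unadjusted p under 0.05. The blocked and unblocked fits called 0 of the 3 genes. The dChip count was 3 above the lower quartile and 5 with log2(value + 50). Leaving out 1 chip gave 1 to 54 with GCRMA (22, 2 and 3 without wild-type replicates A1, A2 and B1, 1 and 54 without COUP-TFI-/- replicates A1 and B1) and 1 to 5 with dChip (5 without COUP-TFI-/- replicate A2, 3 without wild-type replicate B2). Past the set test were 3205 with GCRMA and 1449 with dChip, which became 5731 and 6275 with the 8 chips and 5054 and 4727 with the random block. The GCRMA count was 2109 above the median, and the dChip count 2478 above the lower quartile, 2326 with quantile normalization and 3040 with log2(value + 50). Leaving out 1 chip gave 2046 (without COUP-TFI-/- replicate A1) to 3309 with GCRMA. With dChip it gave 570 to 2293, with 952 and 2241 without wild-type replicates A1 and B2, and 798, 2293 and 570 without COUP-TFI-/- replicates A1, A2 and B2. An interaction p under 0.01 was found for 746 with GCRMA and 1040 with dChip, the latter 670 with the 2-way analysis of variance. Leaving out 1 chip gave 403 to 915 and 589 to 930. Without wild-type replicates A2 and B2 the interaction counts were 467 and 403 for GCRMA, and 605 and 589 for dChip. The lowest GCRMA count for a COUP-TFI-/- chip was 412 (replicate A2), while dChip had 681 and 613 for replicates A1 and A2.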
